A study of Arabidopsis thaliana with 34 samples.

Results

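The 8 genes described here encode enzymes that make the plant hormone auxin (indole-3-acetic acid) from tryptophan: the aminotransferases TAA1 and TAR2 and the flavin monooxygenases YUC2, YUC3, YUC5, YUC6, YUC8 and YUC9. They were chosen by name, as 8 of the 33321 loci of the count table, by a rule that uses no measured value, though with earlier results of these data known. TAA1 and its relatives turn tryptophan into indole-3-pyruvate, and the YUCCA (YUC) enzymes turn indole-3-pyruvate into auxin, so the members act in series in the main auxin route of Arabidopsis thaliana. The route feeds cell elongation and leaf growth in seedlings, and several YUC genes are known targets of the light- and temperature-regulated PIF transcription factors. The members differ in where they are known to act, YUC2 and YUC6 mostly in leaves and flowers and YUC3, YUC5, YUC8 and YUC9 mostly in roots and in shaded or warm shoots.

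Messenger RNA was sequenced from the whole aerial part of seedlings 15 days old, grown on agar plates and pooled by 5 to 15 seedlings per sample. There were 9 genotypes: the inbred lines C24, Ler (Landsberg erecta) and Col, and their F1 crosses C24xLer, LerxC24, C24xCol, ColxC24, ColxLer and LerxCol. No treatment was applied, and which parent of a cross was the seed parent cannot be read from the labels. The comparisons ask how the accessions differ, whether hybrids leave the level midway between their parents, and whether the direction of a cross matters.

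The samples carry replicate letters. Levels come from 28 of the 34 libraries: 6 of C24, 4 each of Ler and its 2 crosses with C24, and 2 of every other genotype. These 28 held 36324848 to 88686247 counts each (median 78733880.5), so that the lowest count of a member in any of them was 43 (YUC8). The 4 libraries lettered C were left out (13198638 to 20435372 counts, with 11393 to 11692 loci at 0 against 2072 to 2742 in the 28), as were Ler D and Ler E. In those 2, 26 genes expressed in C24 and Col but near absent in Ler A and B had a median of 44.1% and 30.7% of their level in C24 and Col, against 0% to 1.25% in Ler C, F and G. Another 2 columns of LerxC24 are lettered D and E in the count table, while the sample titles of that group give F and G in their place. They are called U1 (column D) and U2 (column E) and are used as LerxC24 libraries without a letter. Levels are CPM, counts divided by library totals after trimmed-mean scaling (TMM), and log2 changes are given ± SE. The 28 libraries were scaled among themselves, and levels of left-out libraries come from scaling all 34. Small gaps between these sets cannot be read. The p-values measure the spread between these pools of seedlings.

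Promoter stretches of YUC6, YUC8 and YUC2 are shown as TAIR10.1 reference sequence from RefSeq, which is that of Col, 5′ to 3′ on the gene's strand. YUC6 was the member that differed most between the accessions. YUC8 and YUC2 moved together between replicate letters, and are the members with a searched motif in the stretches shown: the G-box CACGTG, a site that PIF factors can bind, and the auxin response element core TGTCTC, each searched on both strands.
YUC6, the 250 bases before its start, chr5:8938769-8939018, minus strand: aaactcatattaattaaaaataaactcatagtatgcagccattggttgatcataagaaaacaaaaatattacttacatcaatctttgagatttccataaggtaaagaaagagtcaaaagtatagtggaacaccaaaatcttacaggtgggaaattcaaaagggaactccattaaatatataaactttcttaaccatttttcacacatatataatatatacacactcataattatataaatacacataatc
YUC8, 510 to 411 bases before its start, chr4:14192059-14192158, plus strand: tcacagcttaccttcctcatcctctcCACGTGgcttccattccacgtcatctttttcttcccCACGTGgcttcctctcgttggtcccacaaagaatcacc
YUC2, 100 to 1 bases before its start, chr4:7724071-7724170, minus strand: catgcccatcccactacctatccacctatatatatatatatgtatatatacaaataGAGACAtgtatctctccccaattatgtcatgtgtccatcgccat
Capitals mark the G-boxes in YUC8 and, in YUC2, the auxin response core read on the other strand. Within 250 bases before the start, 0 of 8 members held a G-box, against 6.49% of 27443 annotated promoters of that length, and 1 of 8 (YUC2) held the auxin response core, against 10.9%. Within 1000 bases 1 of 8 (YUC8) held a G-box, against 14.8%, and 3 of 8 (TAR2, YUC2 and YUC3) held the auxin response core, against 39.6%. No match says only that these letters are not in that window of the reference. YUC9 also moved between letters and held neither motif within 1000 bases, while TAR2 and YUC3 did not pass between letters. No link between a motif and a level was tested.

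The members lie on chromosomes 1, 4 and 5, and none overlaps another annotated gene. YUC3 (AT1G04610, chr1:1279351-1281618) and YUC9 (AT1G04180, chr1:1104493-1106241) are neighbours on the scale of the set, 173110 bases apart. The gene nearest to YUC9 lies 113 bases away. The closest relatives among the members are YUC5 (AT5G43890, chr5:17648576-17650375) and YUC9, with 79.9% identity over their coding sequences. Their longest identical stretch is shown because reads that fall wholly within it cannot be assigned to either gene.
YUC5, chr5:17649013-17649054, minus strand, and YUC9, chr1:1105791-1105832, plus strand: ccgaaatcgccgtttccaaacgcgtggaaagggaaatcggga
At 42 bases it is short, and it is the only such run of more than 29 bases between members. The sources used here do not give how reads of near copies were counted.

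All 8 members were expressed in every one of the 28 libraries. Per kilobase of exon, the mean level over the 28 libraries was highest for TAR2 (6.14 ± 2.03 CPM per kb, SD, n = 28) and TAA1 (4.25 ± 0.951), followed by YUC6 (2.82 ± 0.728), YUC9 (1.53 ± 0.454), YUC5 (1.36 ± 0.531), YUC2 (1.17 ± 0.318), YUC3 (1.10 ± 0.159) and YUC8 (0.853 ± 0.355). From YUC9 to YUC8 each neighbour in this order lies within 1 SD of the next. In the 18 libraries of letters A and B the order of YUC5 and YUC9 turned, with YUC5 at 1.66 ± 0.393 and YUC9 at 1.41 ± 0.234 CPM per kb (SD, n = 18). The members are low-abundance transcripts: TAR2 stood above 65.0% of all loci in mean CPM and YUC8 above 33.7%. In whole aerial tissue, fewer cells of a type and less transcript per cell cannot be told apart.

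**Figure D1:**
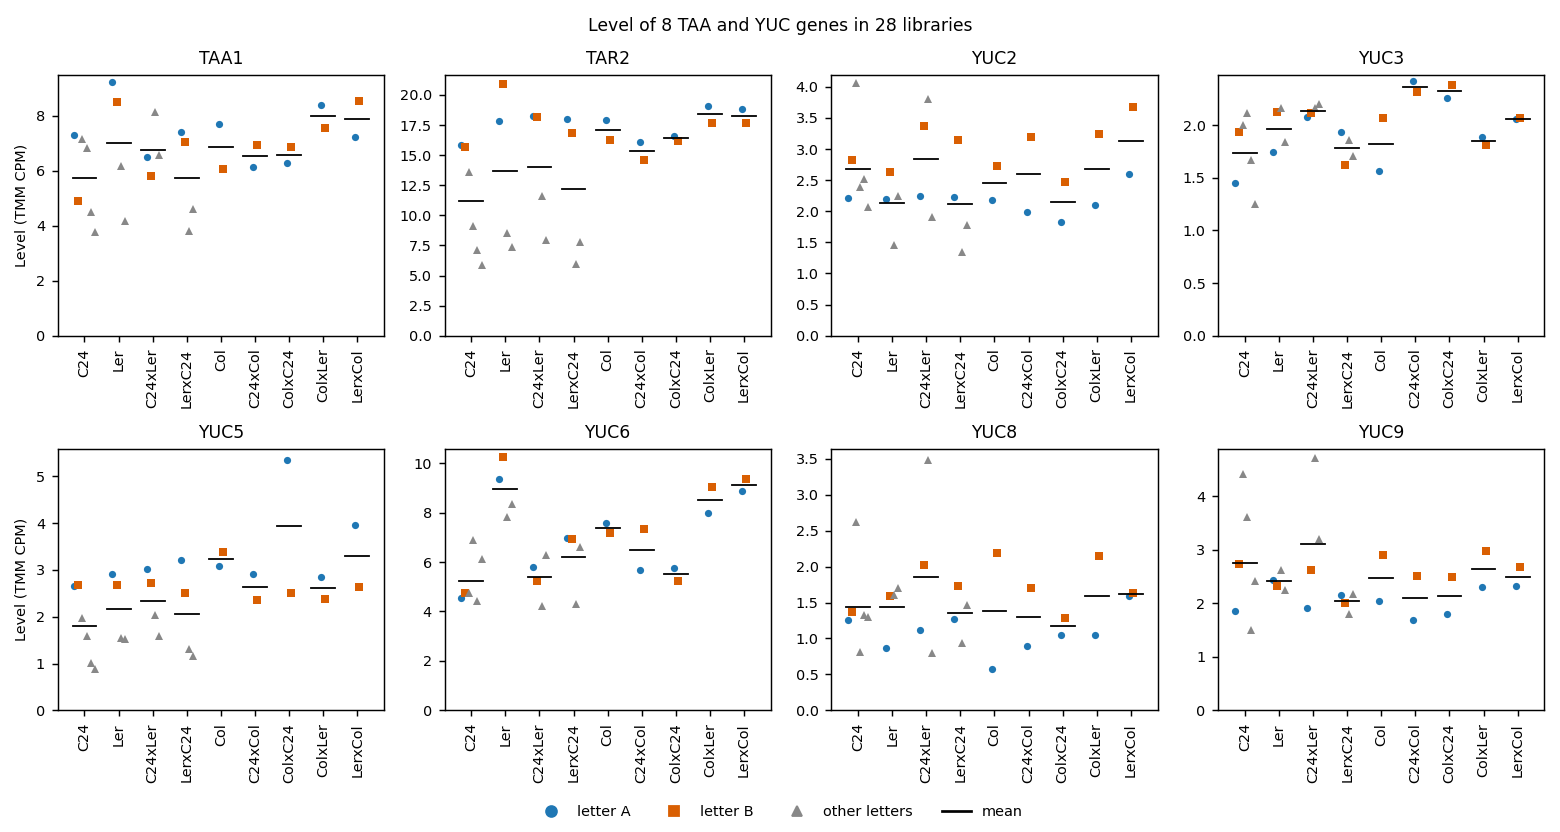
Level of each member (TMM CPM, vertical axis from 0) in every library, by genotype, with letter A as circles, letter B as squares, other letters as triangles and the mean of a genotype as a bar. YUC6 is highest in Ler and in both Col/Ler hybrids and lowest in C24, while TAR2 and YUC5 separate letters A and B from the other letters and not the genotypes.

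YUC6, a YUC enzyme of leaves and flowers whose overexpression is known to delay leaf senescence, was the member that separated the accessions. In C24 it stood at 4.43, 4.75 and 6.87 CPM (lowest, median and highest of 6 libraries). In Ler libraries A, B, F and G it stood at 9.34, 10.3, 7.80 and 8.33 CPM, and in Col A and B at 7.58 and 7.18 CPM. Every Ler and Col library lay above every C24 library, and every Ler library lay above both Col libraries.

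YUC6 (AT5G25620, chr5:8934941-8938768, minus strand, 5 exons) was lower in C24 than in Ler (log2 change -0.77 ± 0.17, adjusted p = 0.00362). It was also lower in C24 than in Col (-0.68 ± 0.13, adjusted p = 0.00337, edgeR's quasi-likelihood test with Benjamini-Hochberg adjustment over all genes tested). Between Col and Ler the change of -0.40 ± 0.13 did not pass (adjusted p = 0.057), and it passed once the replicate letter was fitted as a block (-0.40 ± 0.12, adjusted p = 0.0301, the 1 member of 8 called beside 23.6% of all genes tested). In each of the first 2 comparisons 1 of 8 members was called, beside 14.3% of all genes tested for C24 against Ler and 13.3% for C24 against Col. With the block, 1 of 8 was called for C24 against Col, beside 21.7%. Without the block it was 0 of 8 for Col against Ler, beside 13.9%. At an unadjusted p under 0.05 it was 1 of 8 (YUC6) there, beside 26.3% of all genes tested. By DESeq2 YUC6 was called there (-0.40 ± 0.14, adjusted p = 0.0284), and the share of all genes that DESeq2 called is not given here. In 1 fit over all 28 libraries, in which C24 and Ler have letters that Col has not, the call against Col was lost (-0.51, adjusted p = 0.0768). The submitters' processing notes name the TAIR10 build, which is that of Col, and whether sequence differences from it lower the count of YUC6 in C24 was not tested.

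The left-out libraries held YUC6 at 6.13 CPM in C24 C and 8.89 in Ler C, and at 5.86 in Ler D and 7.60 in Ler E. The 2 C libraries lie within the range of their accession, while Ler D lies below every Ler library used. Ler E is near the lowest of these, Ler F at 7.80 CPM, a gap too small to read across the different scalings. With all 24 libraries of C24, Ler and their hybrids the call for C24 against Ler was kept (-0.62, adjusted p = 0.0176).

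The summed level of flower genes was also highest in Ler. The 5 flower markers AP1, AP3, PI, AG and SEP3 summed to 19.9 to 27.0 CPM in the Ler libraries, against 8.59 to 11.5 in C24 and 9.83 to 11.0 in Col, and none was at 0 in every library. Their part in the YUC6 difference was not tested. AP3, a petal and stamen identity gene, was lower in C24 than in Ler (-2.20 ± 0.23, adjusted p = 2.35e-06), and so was SEP3 (-1.83 ± 0.31, adjusted p = 0.000524), which had the largest share of the sum in Ler (10.7 ± 4.04 CPM, SD, n = 4). Of the 5 markers 4 were called lower in C24 than in Ler and none higher. Of all genes tested 14.3% were called for C24 against Ler and 13.9% for Col against Ler. With all 24 libraries of the C24 and Ler family AP3 (adjusted p = 0.0725), AP1 (0.0905) and PI (0.472) lost their calls. In letters A and B alone AP1 (0.272) and PI (0.261) lost theirs. With 1 library left out, the adjusted p rose up to 0.28 for AP1 and 0.114 for PI. Between Col and Ler 2 were called lower in Col (AP3 and SEP3), while AP1, a floral meristem gene, was called higher in Col than in Ler (1.14 ± 0.24, adjusted p = 0.00698; adjusted p up to 0.0676 without Ler A or Col A, and -0.12 in 1 fit of 28 libraries). In ColxLer and LerxCol the flower sum was 9.82 to 10.6 CPM. Their YUC6 level was 7.98 and 9.02 CPM in ColxLer and 8.87 and 9.36 CPM in LerxCol. A relation of YUC6 to the flower sum was not tested. The sum of 5 leaf markers was 24550 to 40020 CPM in C24, 26260 to 38980 in Ler and 39430 to 39580 in Col. C24 overlapped both, and both Col libraries lay above every Ler library.

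Across all 9 genotypes in letters A and B, which every genotype has, YUC6 fell in the order Ler (9.80 ± 0.648 CPM, SD, n = 2), LerxCol (9.11 ± 0.345), ColxLer (8.50 ± 0.738), Col (7.38 ± 0.287), LerxC24 (6.95 ± 0.0311), C24xCol (6.50 ± 1.19), C24xLer (5.52 ± 0.414), ColxC24 (5.51 ± 0.374) and C24 (4.64 ± 0.139). The highest stood 2.11 times above the lowest. At 3 of the 8 steps between neighbours in that order the libraries of both genotypes do not overlap: ColxLer to Col, Col to LerxC24, and ColxC24 to C24. The means of the 4 genotypes without a C24 parent lay above the means of the 5 with one. For the other 7 members the highest genotype mean was 1.26 (TAR2) to 1.51 (YUC5) times the lowest. YUC6 also made up a varying share of the summed YUC level per kb, 41.1% ± 0.255 in Ler and 25.5% ± 2.19 in C24 (SD, letters A and B, n = 2).

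TAA1 (AT1G70560, chr1:26604855-26607652), the enzyme that starts the route and is needed for elongation in shade, passed only with the letter fitted as a block. In letters A and B it stood at 7.31 and 4.90 CPM in C24, at 9.23 and 8.50 in Ler and at 7.69 and 6.06 in Col. In these letters both Ler libraries lay above both C24 libraries and both Col libraries. In C24 D and E it stood at 7.15 and 6.83 CPM. In letters F and G it stood at 4.52 and 3.78 CPM in C24 and at 6.19 and 4.19 in Ler, so that F and G were low in both accessions, which overlap over all letters. Without the block the change of C24 against Ler was -0.30 ± 0.24 (adjusted p = 0.506). With the letter as a block it was -0.45 ± 0.10 (adjusted p = 0.00497), and the members called were then 2 of 8, beside 32.2% of all genes tested. In the fit of letters A and B alone TAA1 was not called.

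TAR2 (AT4G24670, chr4:12727531-12731331), a relative that acts alongside TAA1, followed the letters more than the accessions. It stood at 14.6 to 20.9 CPM in the 18 libraries lettered A and B. It stood at 13.6, 9.15, 7.15 and 5.85 CPM in C24 D, E, F and G, at 8.49 and 7.40 in Ler F and G, at 11.6 and 7.99 in C24xLer D and E, and at 5.95 and 7.82 in LerxC24 U1 and U2. Every library of letters A and B thus lay above every library of the other letters. How many of all genes split in this way was not counted, so the split cannot be called particular to TAR2. For C24 against Ler the change was -0.29 ± 0.39 (adjusted p = 0.718) in the C24 and Ler family, and -0.30 with an adjusted p of 0.0481 in the fit of letters A and B alone. With the letter as a block it was -0.23 ± 0.093 and did not pass (adjusted p = 0.0747).

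YUC5 had the same split, for which the share of all genes was likewise not counted. It stood at 2.35 to 5.35 CPM in letters A and B and at 0.881 to 2.05 CPM in the 10 other libraries, which do not overlap. Its highest value was in ColxC24 A, at 5.35 CPM against 2.50 CPM in ColxC24 B. The total counts of the libraries lettered F and G and of U1 and U2 were 36324848 to 88686247, and those of letters A and B 72386257 to 86704381. The D and E libraries of C24 and C24xLer had 80265286 to 84020066 counts and held YUC5 at 1.59 to 2.05 CPM. Whether depth has a part in the split was not tested.

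The other members passed in no comparison between accessions, with or without the block. YUC2, which acts with YUC6 in leaves and flowers, stood at 2.08, 2.45 and 4.06 CPM (lowest, median and highest of 6) in C24 and at 2.2, 2.64, 1.46 and 2.25 CPM in Ler A, B, F and G, with a change of 0.33 ± 0.26 (adjusted p = 0.485). For YUC8, the member best known as a PIF target in warmth, the change was 0.0043 ± 0.37 (adjusted p = 0.996), and for YUC9, its partner in responses to wounding, it was 0.19 ± 0.27 (adjusted p = 0.727). YUC3 stood at -0.18 ± 0.14 (adjusted p = 0.453) and YUC5 at -0.27 ± 0.35 (adjusted p = 0.705). Without YUC6, the adjusted p of the 7 other members was 0.473 or more for C24 against Col and 0.23 or more for Col against Ler. The median over the 8 members was -0.23 for C24 minus Ler, -0.12 for C24 minus Col and -0.020 for Col minus Ler, against -0.0060, 0.0052 and 0.0047 over all genes tested.

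**Figure D2:**
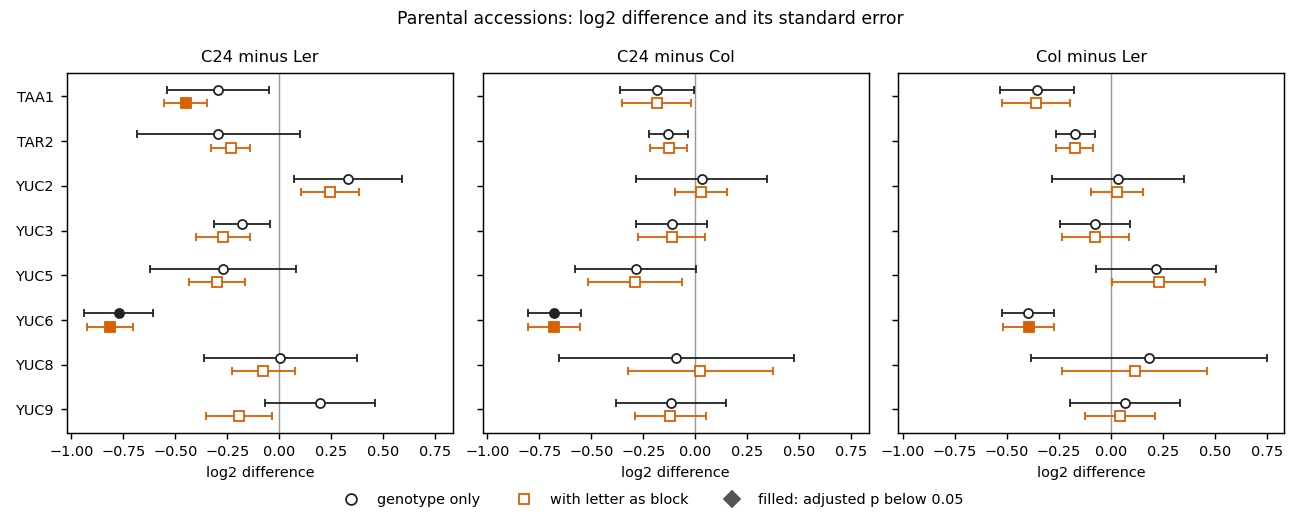
Log2 difference between accessions for each member (horizontal axis) with its standard error, without the letter (black circles) and with the letter as a block (orange squares), filled where the adjusted p was below 0.05. YUC6 is filled in all 3 panels with the block and in the 2 panels with C24 without it, and TAA1 is filled for C24 minus Ler with the block alone.

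No member left the midpoint between its parents by the main test. By edgeR's quasi-likelihood test 0 of 8 members were called in the C24/Ler, C24/Col and Col/Ler hybrids, beside 0.769%, 1.24% and 1.12% of all genes tested. At an unadjusted p under 0.05 the counts were 0, 1 (YUC3) and 0, beside 7.02%, 12.4% and 9.98% of all genes tested. By DESeq2 0 members were called in each family, where 446, 786 and 625 of all genes were called. The medians over the members were 0.056, -0.021 and 0.046, against 0.0030, 0.0028 and 0.0022 over all genes tested. With 2 to 6 libraries per genotype the SEs of single members ran up to 0.40 (YUC8), which limits what could be detected for that gene.

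YUC3, a YUC gene best known from roots, was the member furthest from its mid-parent. It stood at 2.42 and 2.31 CPM in C24xCol A and B and at 2.26 and 2.38 CPM in ColxC24 A and B. In the parents it stood at 1.57 and 2.07 CPM in Col A and B and at 1.25, 1.81 and 2.11 CPM in C24 (lowest, median and highest of 6). All 4 hybrid libraries lay above all 8 parental libraries. The change was 0.41 ± 0.12 without the block (adjusted p = 0.16) and 0.41 ± 0.11 with it (adjusted p = 0.043), where 1 of 8 members was called beside 7.44% of all genes tested. With the block 0 of 8 were called in the C24/Ler hybrids, beside 2.77%, and 0 of 8 in the Col/Ler hybrids, beside 4.22%.

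In the other 2 families YUC3 stood at 0.076 ± 0.10 (C24/Ler, adjusted p = 0.989) and 0.050 ± 0.12 (Col/Ler, adjusted p = 0.918). The difference between the C24/Col and Col/Ler families, tested directly, was 0.36 ± 0.14 (adjusted p = 0.838), and that between C24/Ler and C24/Col was -0.32 ± 0.14 (adjusted p = 0.928). In each of the 3 differences between families 0 of 8 members were called, beside 0.39% (C24/Ler against C24/Col), 0.41% (C24/Ler against Col/Ler) and 0.423% (C24/Col against Col/Ler) of all genes tested. At an unadjusted p under 0.05 the counts were 1 (YUC3), 0 and 1 (YUC3), beside 5.36%, 4.48% and 4.94% of all genes tested. With the block 0 of 8 members were called in each, beside 0.695%, 0.685% and 0.903%. At an unadjusted p under 0.05 the counts with the block were 2 (YUC2 and YUC3), 0 and 2 (YUC2 and YUC3), beside 9.99%, 8.01% and 8.39%. The families share parental libraries, so their values are not independent of each other.

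YUC6 in the C24/Ler hybrids did not differ past the test from the mid-parent. C24xLer A, B, D and E stood at 5.82, 5.23, 4.20 and 6.28 CPM, and LerxC24 A, B, U1 and U2 at 6.97, 6.93, 4.29 and 6.61 CPM. All 8 hybrid libraries lay below all 4 Ler libraries, and 2 of the 8, LerxC24 A and B, lay above the highest C24 library. The change against the mid-parent was -0.24 ± 0.12 (adjusted p = 0.77; -0.21 ± 0.10, adjusted p = 0.314 with the block). In the crosses with Col, YUC6 stood at 0.025 ± 0.090 (C24/Col, adjusted p = 0.935) and 0.043 ± 0.089 (Col/Ler, adjusted p = 0.904) from the mid-parent.

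For the aminotransferases the hybrids of the Col families were measured with small errors. TAR2 stood at -0.053 ± 0.067 in the C24/Col hybrids and at 0.0021 ± 0.066 in the Col/Ler hybrids, and TAA1 at 0.012 ± 0.13 and 0.018 ± 0.12. In the C24/Ler hybrids TAR2 stood at 0.074 ± 0.29 and TAA1 at -0.035 ± 0.18, with wider errors in the fit that mixes letters. YUC8 and YUC2 had their largest values in the Col/Ler hybrids, 0.30 ± 0.40 and 0.25 ± 0.22, and neither passed (adjusted p = 0.849 and 0.763). With the block YUC2 stood there at 0.23 ± 0.088 and did not pass (unadjusted p = 0.0231 and adjusted p = 0.183 by the quasi-likelihood test). Of all genes tested 18.7% had an unadjusted p under 0.05 in that fit.

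**Figure D3:**
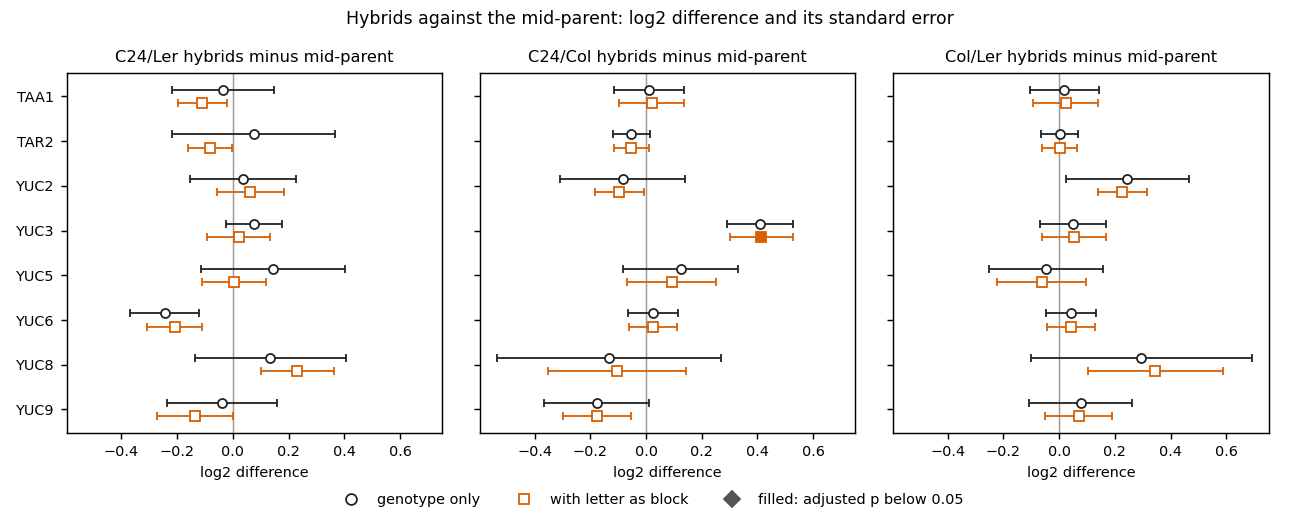
Log2 difference of hybrids from the mid-parent for each member (horizontal axis) with its standard error, in 3 families, without the letter (black circles) and with the letter as a block (orange squares), filled where the adjusted p was below 0.05. YUC3 in the C24/Col hybrids, with the block, is the only filled point.

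No member differed past the test between the directions of a cross. By edgeR's quasi-likelihood test 0 of 8 members were called in each of the 3 reciprocal pairs, beside 0.00339%, 0% and 0% of all genes tested for C24xLer against LerxC24, C24xCol against ColxC24 and ColxLer against LerxCol. At an unadjusted p under 0.05 the count without the block was 0 in each pair. By DESeq2 0 members were called in each. With the block 0 members were called in each, beside 0%, 0.0168% and 0% of all genes tested. Counts at an unadjusted p under 0.05 with the block were 1 (YUC6), 1 (YUC5) and 0, beside 3%, 4.14% and 6.83%. YUC6 stood there at -0.40 ± 0.15 for C24xLer minus LerxC24, and YUC5 at -0.55 ± 0.22 for C24xCol minus ColxC24. Without the block the largest value was that of YUC9, at 0.61 ± 0.29 for C24xLer minus LerxC24 (adjusted p = 0.941). C24xLer A, B, D and E stood at 1.91, 2.62, 4.72 and 3.19 CPM of YUC9 and LerxC24 A, B, U1 and U2 at 2.15, 2.00, 1.80 and 2.18 CPM. The groups overlap, and the 2 highest values are C24xLer D and E. The LerxC24 columns of those letters in the count table, U1 and U2, are not high. With the letter as a block, a fit without U1 and U2, the YUC9 value was 0.088 ± 0.21, and the members with a positive value were 3 of 8 in place of 7 of 8. In the crosses with Col the largest value was that of YUC5 for C24xCol minus ColxC24 (-0.58 ± 0.29, adjusted p = 1), with 2.90 and 2.35 CPM against 5.35 and 2.50 CPM, which overlap.

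Several members differed between replicate letters. Because letters A and B occur in all 9 genotypes, they were compared directly with genotype in the fit, a comparison added after the data were seen. The sources used here do not give what a letter stands for (a day, a plate or a run), and p-values of this kind cover these 2 sets of pools only. By edgeR's quasi-likelihood test 4 of 8 members were called, 3 higher in B and 1 lower, beside 29.8% of all genes tested.

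YUC2 was higher in letter B (log2 change 0.48 ± 0.059, adjusted p = 5.17e-05). Its level was 1.83 to 2.60 CPM in the A libraries and 2.46 to 3.67 CPM in the B libraries, and B was above A in 9 of 9 genotypes, by 1.20 to 1.61 times. Its changes between genotypes passed in 0 of the 9 comparisons above, with and without the block.

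YUC8 was 0.71 ± 0.16 higher in letter B (adjusted p = 0.00655). In A it stood at 1.26 CPM in C24, 0.869 in Ler and 0.572 in Col, and in B at 1.36, 1.60 and 2.19 CPM in the same order. B was above A in 9 of 9 genotypes, by 1.02 (LerxCol) to 3.82 times (Col).

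YUC9 was 0.33 ± 0.081 higher in letter B (adjusted p = 0.00706) and above A in 7 of 9 genotypes, the exceptions being Ler and LerxC24. YUC5 was lower in B (-0.30 ± 0.11, adjusted p = 0.0487), in 7 of 9 genotypes. That call was lost without any 1 of 14 of the 18 libraries (adjusted p up to 0.105). TAA1 (-0.092 ± 0.078), TAR2 (-0.040 ± 0.042), YUC3 (0.094 ± 0.075) and YUC6 (0.055 ± 0.058) did not pass, with adjusted p values of 0.414, 0.519, 0.389 and 0.519.

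**Figure D4:**
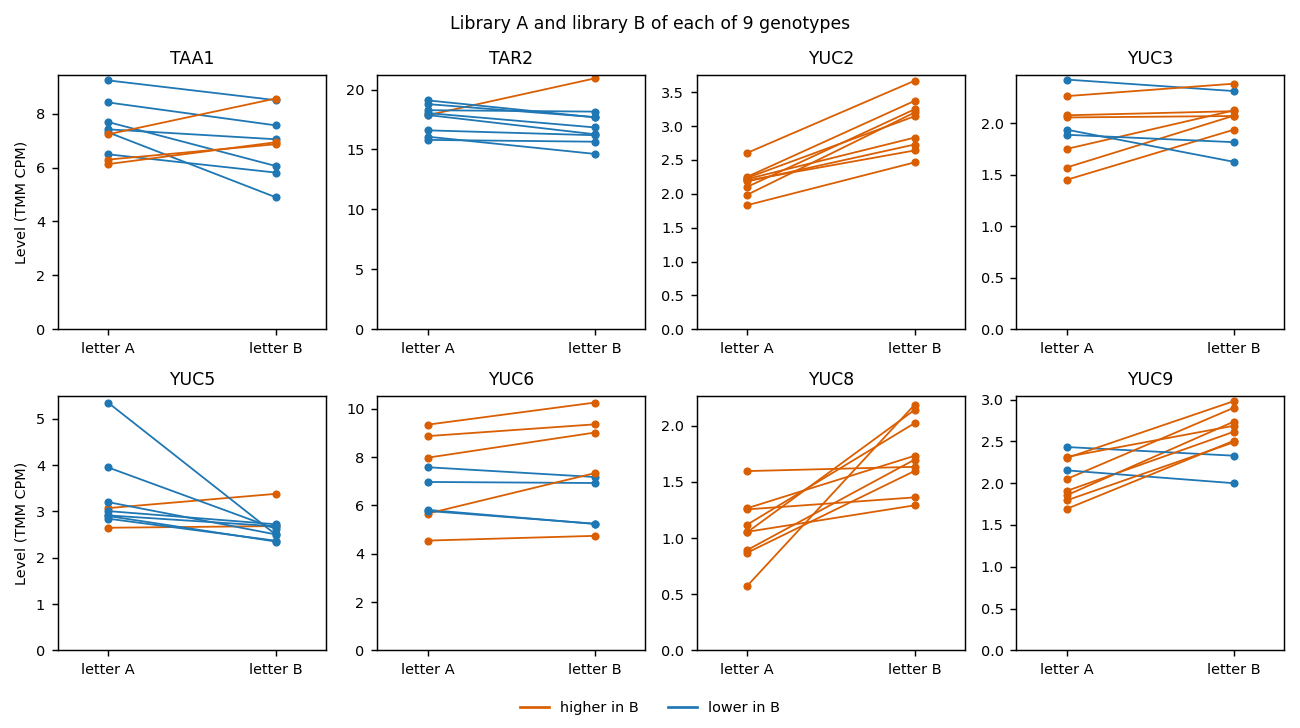
Level of each member (TMM CPM, vertical axis from 0) in library A and library B of each of the 9 genotypes, 1 line per genotype, orange where B is higher and blue where B is lower. All 9 lines rise for YUC2 and YUC8, and 7 of 9 rise for YUC9 and fall for YUC5.

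YUC2, YUC8 and YUC9 were also high together in C24 D and C24xLer D. YUC8 stood at 2.61 CPM in C24 D and 3.49 CPM in C24xLer D, the highest values of their genotypes, and at 3.94 CPM in the left-out library Ler D. YUC9 stood at 4.42, 4.72 and 4.25 CPM in these 3 libraries and YUC2 at 4.06, 3.80 and 3.19 CPM. In the E libraries of the same genotypes YUC8 was the lowest of its genotype, at 0.818 CPM in C24 E, 0.795 CPM in C24xLer E and 0.708 CPM in the left-out Ler E, while YUC9 was still at 3.62 and 3.19 CPM in C24 E and C24xLer E. LerxC24 U1, lettered D in the count table alone, was not high, at 0.938 CPM of YUC8, 1.80 CPM of YUC9 and 1.35 CPM of YUC2. No test was made.

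The sum of the aminotransferases and the sum of the YUC genes did not keep 1 ratio between libraries. Per kb, TAA1 and TAR2 together stood at 4.97 to 14.6 CPM per kb and the 6 YUC members together at 5.85 to 10.8. Their ratio was 1.06 (Col B) to 1.63 (C24 A) in letters A and B and 0.673 (Ler G) to 1.02 (C24 D) in the other libraries, without overlap. Whether other sets of genes split in this way was not tested. Between genotypes, in letters A and B, the ratio was 1.21 ± 0.00778 in LerxCol at its lowest and 1.41 ± 0.312 in C24 at its highest (SD, n = 2), a span within the SD of C24.

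The genes whose levels ran most like each member were taken over the 28 libraries from 23666 genes, by Pearson's r of log2(CPM + 0.5), as a description. TAR2 ran with AT3G27825 (r = 0.98) and AARE (0.979), YUC5 with LCR67 (0.933) and AT3G15810 (0.932), and TAA1 with the actin gene ACT7 (0.902) and mMDH2 (0.88). In the 18 libraries of letters A and B alone these 6 values were 0.846, 0.54, 0.719, 0.724, 0.722 and 0.776. The 28 libraries hold the split between letters given above. YUC6 ran with AT3G13404 (0.836, and 0.845 in letters A and B) and scpl48 (0.834 and 0.848), YUC2 with MTO3 (0.842 and 0.761) and AT5G54880 (0.83 and 0.656), and YUC3 with AT4G35910 (0.737 and 0.618) and AT3G07565 (0.714 and 0.717). YUC8 ran with AT3G46630 (0.857 and 0.783) and PMR5 (0.786 and 0.77), and YUC9 with AT3G61240 (0.838 and 0.559) and AT3G23300 (0.838 and 0.749). No member was among the 2 nearest genes of another member.

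Of 77 other genes of the auxin pathway, in 9 lists, 76 were tested. Between the accessions 16 (6 higher and 10 lower in C24 than in Ler), 16 (10 higher and 6 lower in C24 than in Col) and 14 (4 higher and 10 lower in Col than in Ler) were called, 21.1%, 21.1% and 18.4% of them beside the 14.3%, 13.3% and 13.9% of all genes given above. With the block these were 31, 26 and 27, or 40.8%, 34.2% and 35.5% beside 32.2%, 21.7% and 23.6%. The largest called change was that of NIT2, a nitrilase of another auxin route whose near copies can share its reads, lower in C24 than in Ler (-2.97 ± 0.85, adjusted p = 0.0254; adjusted p up to 0.0576 without Ler A or Ler G, and 0.0574 with all 24 libraries) and in Col than in Ler (-4.03 ± 1.17, adjusted p = 0.0412). The second of these calls was lost without any 1 of 8 libraries of Ler, Col, C24xCol and LerxCol (adjusted p up to 0.213) and in 1 fit of 28 libraries (adjusted p = 0.0792). ASB1, a subunit of the enzyme that opens tryptophan synthesis, was lower in C24 than in Ler (-1.54 ± 0.22, adjusted p = 7.55e-05) and than in Col (-1.01 ± 0.15, adjusted p = 0.000595).

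Genes that release or break down auxin differed in both directions. ILL3, of a family that frees auxin from amino acid conjugates, was higher in C24 than in Ler (1.47 ± 0.096, adjusted p = 5.52e-09) and than in Col (1.37 ± 0.11, adjusted p = 2.62e-06), at 10.5 ± 0.676 CPM in C24, 3.95 ± 0.398 in Ler and 4.04 ± 0.276 in Col (SD, letters A and B, n = 2). ILL1, of the same family, was lower in C24 than in Ler (-0.68 ± 0.086, adjusted p = 2.32e-05) and than in Col (-0.32 ± 0.094, adjusted p = 0.0398). The second of these calls was lost without any 1 of 12 of the 18 libraries (adjusted p up to 0.234). Of the auxin oxidase genes, DAO2 was higher in C24 than in Ler (1.53 ± 0.37, adjusted p = 0.00937; 0.67, adjusted p = 1 with all 24 libraries), while DAO1 was lower in C24 than in Ler (-0.72 ± 0.13, adjusted p = 0.00105) and in Col than in Ler (-1.15 ± 0.14, adjusted p = 0.000165). DAO1 and DAO2 are close relatives and neighbours by locus number, so that their counts are uncertain where reads match both. Within the families of the members, YUC4 was lower in C24 than in Ler (-0.55 ± 0.14, adjusted p = 0.0138; adjusted p = 0.0619 without library Ler B and 0.756 with all 24 libraries), and TAR3 was higher in C24 than in Ler (1.58 ± 0.25, adjusted p = 0.000254). TAR4, its relative, was lower in C24 than in Ler (-1.06 ± 0.31, adjusted p = 0.0289; adjusted p up to 0.137 without C24 E, C24 G, Ler A or Ler B) and than in Col (-1.65 ± 0.23, adjusted p = 0.000334). Whether reads shared between TAR3 and TAR4 bear on these values was not tested.

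Against the mid-parent 0, 0 and 1 of the 76 were called in the C24/Ler, C24/Col and Col/Ler hybrids (4, 1 and 4 by DESeq2). At an unadjusted p under 0.05 there were 11, 16 and 16 of the 76, beside 7.02%, 12.4% and 9.98% of all genes tested. With the block 3, 10 and 13 were called, 3.95%, 13.2% and 17.1% of the 76 beside the 2.77%, 7.44% and 4.22% given above. Of these, 1 was higher and 2 lower in C24/Ler, 3 higher and 7 lower in C24/Col, and 5 higher and 8 lower in Col/Ler. DAO1 was the gene called without the block, lower in the Col/Ler hybrids (-0.57 ± 0.10, adjusted p = 0.0174), at 7.05 ± 0.222 CPM in ColxLer and 6.09 ± 0.229 in LerxCol against 14.5 ± 2.2 in Ler and 6.45 ± 0.225 in Col (SD, letters A and B, n = 2). That call was lost without Ler A, ColxLer A or B, or LerxCol A or B (adjusted p up to 0.09).

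With the block, IAA29, an early auxin response gene, passed as higher than the mid-parent in each family: 0.62 ± 0.14 (adjusted p = 0.0358) in C24/Ler, 0.46 ± 0.12 (adjusted p = 0.0412) in C24/Col and 0.55 ± 0.12 (adjusted p = 0.0228) in Col/Ler. Without the block its values were 0.45, 0.44 and 0.56 and none passed (adjusted p = 0.964, 0.682 and 0.681). ATHB2, a shade-induced gene, passed with the block in C24/Col (0.48 ± 0.11, adjusted p = 0.0241) and Col/Ler (0.59 ± 0.11, adjusted p = 0.0114), and not without it (adjusted p = 0.222 and 0.141). PIF3, of the same list, passed with the block as lower in C24/Col (-0.48 ± 0.066, adjusted p = 0.000752). HFR1 and PIL1 of that list passed with the block as higher in Col/Ler (0.37 ± 0.083 and 0.66 ± 0.16, adjusted p = 0.0222 and 0.0298). NIT3, a nitrilase of another auxin route whose near copies can share its reads, passed with the block as lower in all 3 families (-0.34 ± 0.067, -0.51 ± 0.060 and -0.39 ± 0.059, with adjusted p = 0.0185, 0.000211 and 0.00216), and not without it (adjusted p = 0.989, 0.361 and 0.565). NIT1, of the same list as NIT3, was also called lower with the block in all 3 families (-0.38, -0.57 and -0.26). SUR1 of that list was called lower with the block in C24/Col (-0.53) and Col/Ler (-0.67). In the fits with the block YUC3 in C24/Col was the only member that passed.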

How the data were processed

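The authors deposited 1 table of raw counts of reads for each locus, in whole numbers with no normalization, with 1 column per library. Per the labels' protocols, RNA came from a column kit with DNase treatment, and TruSeq mRNA libraries were run single- or paired-ended on GAIIx or HiSeq instruments. The submitters' processing notes name TAIR10 and FastQC, and the sources used here do not give the aligner, the counter or the use of strand. Counts of genes that differ from the Col reference can be too low in C24, in Ler and in their hybrids.

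Columns were mapped by name, and 0 were without a sample or group. Of LerxC24, U1 and U2 have a group alone. Every replicate pair differed by more than sampling noise (lowest chi-square per gene 23.9 over 67 pairs). The main test was the quasi-likelihood test of edgeR 4.0.16 in R 4.3.3, with TMM scaling, filterByExpr by genotype, robust dispersions, Benjamini-Hochberg adjustment over all genes tested and calls below 0.05. The C24 and Ler family, hybrids included, was fitted on 18 libraries (29528 genes). Comparisons with Col, and those between families, used the 18 libraries lettered A and B (29777 genes). The mid-parent is the average of both parents' log2 levels. SDs over 2 libraries are rough.

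Same-letter libraries shared deviations from their group means (r = 0.378 to 0.745 over 16 pairs in the first fit and 0.212 to 0.557 over 72 pairs in the second), so the letters of the labels pair the samples. With 2 libraries per genotype in the second fit, an A pair and its B pair give the same r, so the 72 are not independent. The main fit has no block because the labels do not say that a letter marks a shared batch. It thus leaves this pairing out, and differences between letters enter its errors. For YUC2 in the Col/Ler hybrids the SE was 0.22 without the block and 0.088 with it. The fit with the letter as a block is given where it changes a call. It leaves out U1 and U2, whose letters in the count table are in no title of LerxC24.

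Alternatives were DESeq2 1.42.0, its size factors in edgeR, no filter, all 24 libraries, letters A and B alone, 1 fit of 28 libraries, the arithmetic mid-parent, and each library left out. The code was tested on simulated counts. Levels per kb use exon lengths of RefSeq's TAIR10.1 annotation, which also gave promoters and coordinates. All 8 members passed the filter. The rule for named genes was all members, at most the 3 largest called genes per pathway list and comparison, and the 2 genes most like each member. The members and lists were chosen with earlier results of these data known.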

Additional observations from a re-analysis of the deposited data

Results flagged for a closer look

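In groups of 4 to 6 libraries, 3 of 32 sets of member values held a library whose distance to the nearest other value was large for the range of its group, a mark that chance gives to about 1 set in 20. YUC6 stood at 4.29 CPM in LerxC24 U1, below the other 3 LerxC24 libraries (6.61 to 6.97 CPM). YUC8 stood at 2.61 CPM in C24 D, above the other 5 C24 libraries (0.818 to 1.36 CPM). YUC8 stood at 0.869 CPM in Ler A, below the other 3 Ler libraries (1.60 to 1.71 CPM).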

How the results depend on the processing

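The lower YUC6 of C24 against Ler kept its direction and its call under every alternative run for it, without any 1 library included (-0.87 to -0.70, adjusted p up to 0.0168). Against Col it kept both without any 1 library (-0.72 to -0.64, adjusted p up to 0.0332) and lost the call in 1 fit of 28 libraries alone, where the members called were 0. For the results below, unless a reason is given, the cause of the change was not tested, and all members named with a changed sign were not called in any fit quoted for them.

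The replicate block, which follows the pairing of the samples by letter, raised most counts. Called members became 2 for C24 minus Ler, 1 for Col minus Ler and 1 for the C24/Col hybrids, the genes named above, and no other member changed its call. Pathway genes called became 31 for C24 minus Ler, 26 for C24 minus Col and 27 for Col minus Ler, and 3, 10 and 13 for the C24/Ler, C24/Col and Col/Ler hybrids. Over all genes the calls rose from 4220 to 9609 for C24 minus Ler, from 3949 to 6460 for C24 minus Col and from 4143 to 7020 for Col minus Ler. For the hybrids they rose from 227 to 826 (C24/Ler), from 369 to 2214 (C24/Col) and from 334 to 1258 (Col/Ler). For the reciprocal pairs they were 0 in place of 1 (C24xLer) and 5 in place of 0 (C24xCol). For differences between families they were 207, 204 and 269 in place of 116, 122 and 126. Signs turned with the block for YUC8 (-0.077) and YUC9 (-0.20) in C24 minus Ler, for YUC8 in C24 minus Col (0.024) and for TAR2 in the C24/Ler hybrids (-0.082).

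DESeq2 called YUC6 for Col minus Ler, beside a share of all genes not given here. It called 4, 1 and 4 pathway genes and 446, 786 and 625 of all genes in the C24/Ler, C24/Col and Col/Ler hybrids. It called 19 genes for C24xCol minus ColxC24 and 4 for ColxLer minus LerxCol. With all 24 libraries of the C24 and Ler family, 9 pathway genes and 1472 of all genes were called for C24 minus Ler and 71 genes for their hybrids, and YUC8 stood at -0.28 for C24 minus Ler. In letters A and B alone the C24 minus Ler comparison called the members YUC6 and TAR2, beside a share of all genes not given here. In that fit C24xLer minus LerxC24 called 0 genes, and YUC9 stood at -0.048 for C24 minus Ler. In 1 fit of 28 libraries Col minus Ler called 7 pathway genes and 2703 of all genes, the Col/Ler hybrids 206 genes and ColxLer minus LerxCol 1 gene. In that fit YUC8 (0.047) and YUC9 (0.14) turned in C24 minus Col, TAR2 (0.34) and YUC8 (-0.034) in Col minus Ler, TAR2 (0.19) and YUC6 (-0.061) in the C24/Col hybrids and YUC5 (0.14) in the Col/Ler hybrids, and the marker AP1 turned in Col minus Ler (-0.12), where it lost its call. TAR2 and YUC5 split by letter, as given above, and Col has letters A and B alone. With the arithmetic mid-parent YUC6 turned in the C24/Col hybrids (-0.0016). Without a filter on low counts the adjusted p of YUC5 between letters was 0.0503, and DESeq2's size factors in edgeR moved no count by over 1.5 times.

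Leaving out 1 library at a time turned no called change of a member. The range was 0 to 1 called members for Col minus Ler (YUC6, called without C24xCol A or B). Pathway genes called ranged from 4 to 15 for Col minus Ler (4, 7 and 5 without Ler A, Ler B and Col B), from 0 to 2 in the C24/Ler hybrids (above 0 without Ler B, Ler F or LerxC24 B), from 0 to 1 in the C24/Col hybrids (1 without Col B), from 0 to 3 in the Col/Ler hybrids and from 0 to 1 for C24xCol minus ColxC24 (1 without ColxC24 B). All genes called ranged from 2212 (without Ler A) to 4105 for Col minus Ler, from 236 (without C24xCol B; 237 without C24 A) to 666 (without Col B) in the C24/Col hybrids and from 187 (without Ler A; 211, 207 and 218 without ColxLer A, ColxLer B and LerxCol A) to 356 in the Col/Ler hybrids. They ranged from 0 to 143 (without ColxC24 B) for C24xCol minus ColxC24, from 0 to 1 (without LerxCol B) for ColxLer minus LerxCol, and from 78 (without ColxLer B) to 125 for C24/Ler against Col/Ler. Ranges that cross 0 were, for C24 minus Ler, -0.26 to 0.13 (YUC8). For C24 minus Col they were -0.49 to 0.076 (TAA1), -0.16 to 0.20 (YUC2), -0.34 to 0.10 (YUC3), -0.75 to 1.18 (YUC8) and -0.43 to 0.15 (YUC9). For Col minus Ler they were -0.13 to 0.18 (YUC2), -0.29 to 0.11 (YUC3), -1.09 to 0.84 (YUC8) and -0.20 to 0.30 (YUC9). In the C24/Ler hybrids they were -0.12 to 0.045 (TAA1), -0.050 to 0.22 (TAR2), -0.090 to 0.12 (YUC2), -0.0031 to 0.24 (YUC5), -0.12 to 0.26 (YUC8), -0.17 to 0.054 (YUC9) and -0.035 to 0.60 (IAA29). In the C24/Col hybrids they were -0.12 to 0.17 (TAA1), -0.28 to 0.069 (YUC2), -0.20 to 0.35 (YUC5), -0.076 to 0.11 (YUC6) and -0.46 to 0.52 (YUC8). In the Col/Ler hybrids they were -0.053 to 0.11 (TAA1), -0.055 to 0.071 (TAR2), -0.042 to 0.17 (YUC3), -0.21 to 0.085 (YUC5), -0.033 to 0.94 (YUC8) and -0.037 to 0.22 (YUC9). For C24xCol minus ColxC24 the range of YUC5 was -1.02 to 0.064.

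Col and its crosses have 2 libraries each, so leaving 1 out rests on the spread of the other genotypes. Without the block YUC8, the lowest member, has the widest errors in the comparisons with Col and TAR2 in those of the C24 and Ler family, and their values near 0 do not show equal levels.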

Other observations

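In the 4 left-out libraries lettered C, both aminotransferase genes stood above every library used. TAA1 stood at 15.6 CPM in C24 C, 26.1 in Ler C, 15.5 in C24xLer C and 15.3 in LerxC24 C, against 3.78 to 9.23 CPM in the 28. TAR2 stood at 29.9, 26.4, 30.3 and 29.6 CPM in the same order, against 5.85 to 20.9 CPM. YUC6, at 5.24 to 8.89 CPM, lay within its range in the 28. In C24 C, Ler C, C24xLer C and LerxC24 C, YUC5 stood at 1.205, 0.7016, 1.228 and 1.572 CPM, against 0.881 to 5.35 CPM in the 28. For YUC3 the values were 0.8763, 0.9355, 1.964 and 2.201 CPM in the same order, against 1.25 to 2.42 CPM. These libraries have many loci at 0, and what that does to their CPM values was not tested.

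In the left-out Ler libraries D and E, which held transcripts near absent from other Ler libraries, TAR2 stood at 11.3 and 9.39 CPM and YUC5 at 2.08 and 1.64 CPM. Both genes lay below letters A and B of Ler. TAR2 lay above Ler F and G in both libraries, and YUC5 did so in Ler D. In Ler E, YUC5 was near Ler F and G (1.55 and 1.53 CPM). In Ler D it was near the 2.05 CPM that was its highest value in the other letters. Across the different scalings the last of these gaps are too small to read.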
